A study of Mus musculus with 12 samples.

Results

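The genes described here are the lipid droplet perilipins and the lipins with their closest partners, 10 genes of the 39756 in the count table: Plin2, Plin3, Plin4, Plin5, Lpin1, Lpin2, Lpin3, Hilpda, Pnpla2 and G0s2. They were taken by name, without a threshold. The list was nonetheless selected on group differences already seen in these same counts, so the differences between groups below are a description and carry no independent weight. The counts come from ischemic hemispheres of 12 male C57BL/6J mice aged 9 to 10 weeks, with 4 mice per group. In the Vehicle and LJP groups a filament closed the middle cerebral artery for 45 min and was then withdrawn (tMCAO, a model of stroke with reperfusion), whereas the Sham group had sham surgery. LJP mice received Laminaria japonica polysaccharide, a sulfated polysaccharide from brown algae, by the intragastric route each day for 14 days before surgery and also afterwards. Vehicle and Sham mice received saline on the same schedule. Of its 3 doses, the study carried the middle one (LJP-M) forward after its dose comparison, and the labels of the sequenced mice name none. Their time after surgery is not given in the sources used here; other assays of the study were made at 3 days.

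Lipid droplets are stores of triglyceride and sterol esters enclosed by a single phospholipid layer, and perilipins are the proteins that coat them. Lipins are phosphatidate phosphatases: they turn phosphatidate into diacylglycerol, the last intermediate before triglyceride, and they also act in the nucleus as transcriptional coregulators. Pnpla2 encodes ATGL, the lipase that starts the breakdown of stored triglyceride, and the proteins of G0s2 and Hilpda both inhibit it. In brain, droplets are known in microglia, astrocytes, ependymal cells and infiltrating macrophages, above all after injury and in ageing.

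The 10 genes lie on 7 chromosomes, with positions that equal those of RefSeq on GRCm38. Plin4 (chr17:56100587-56109948), Plin5 (chr17:56111597-56117606) and Plin3 (chr17:56278962-56290511) stand in a row on the minus strand of chromosome 17. Only 1649 bases separate Plin4 from Plin5, and 161356 bases separate Plin5 from Plin3. Lpin2 (chr17:71183532-71249818, plus strand) is on the same chromosome. Plin2 (chr4:86626910-86670217, minus strand), Lpin1 (chr12:16535669-16653903, minus), Lpin3 (chr2:160880670-160906000, plus), Hilpda (chr6:29272488-29275449, plus), Pnpla2 (chr7:141455188-141460743, plus) and G0s2 (chr1:193272160-193273188, minus) are elsewhere. The span of Plin4 overlaps that of Hdgfl2 on the opposite strand by 19 bases, and Lpin1 overlaps Ntsr2 by 461 bases. Whether counting used the strand is not given in the sources used here, so reads in those overlaps cannot be told apart.

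Upstream sequence is shown for genes that differ in how they moved: Plin2, Plin4 and Lpin3, which were far higher in Vehicle than in Sham mice, Lpin2, which stayed within a narrow range, and Hilpda, which was high in 2 Vehicle mice. The 250 bases before each RefSeq start (GRCm38.p6) were searched on both strands for ACGTG (the core of the hypoxia response element), AGGTCA (the nuclear receptor half-site used by PPARs), TGACTCA (AP-1), TTCCNGGAA (STAT) and TTGCNNAA (C/EBP). Of 32851 promoter entries of the same length, 16.6% held ACGTG, 14% AGGTCA, 4.46% TGACTCA, 0.913% TTCCNGGAA and 9.56% TTGCNNAA. Sequences run 5′ to 3′ on the strand of the gene, and capitals mark a match on either strand.

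Plin2 (chr4:86670218-86670309, minus): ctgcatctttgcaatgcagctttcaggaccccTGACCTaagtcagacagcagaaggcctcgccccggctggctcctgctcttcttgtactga
Plin4 (chr17:56109949-56110032, minus): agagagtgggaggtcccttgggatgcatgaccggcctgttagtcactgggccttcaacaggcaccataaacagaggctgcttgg
Lpin3 (chr2:160880420-160880669, plus): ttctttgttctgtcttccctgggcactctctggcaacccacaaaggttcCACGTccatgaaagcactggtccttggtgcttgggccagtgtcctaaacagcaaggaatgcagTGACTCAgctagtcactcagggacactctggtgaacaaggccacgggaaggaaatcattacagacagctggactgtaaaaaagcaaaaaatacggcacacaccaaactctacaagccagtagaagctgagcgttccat
Lpin2 (chr17:71183282-71183531, plus): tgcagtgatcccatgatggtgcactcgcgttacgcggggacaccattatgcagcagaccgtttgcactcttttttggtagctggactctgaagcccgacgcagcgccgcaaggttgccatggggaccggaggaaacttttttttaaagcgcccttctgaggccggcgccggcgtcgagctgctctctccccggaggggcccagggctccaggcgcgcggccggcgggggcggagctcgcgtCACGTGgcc
Hilpda (chr6:29272573-29272597, plus): tggccagcggACGTGccccagggcg

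The Plin2 stretch held an AGGTCA match on the opposite strand, the Lpin3 stretch an ACGTG and a TGACTCA match, and the Plin4 stretch none of the 5 motifs. In Lpin2 the 2 ACGTG matches overlap, since CACGTG reads the same on both strands. The Hilpda site lies in an exon of that gene, upstream of its second RefSeq start. All 10 genes had promoter entries, 15 in all. ACGTG was found for 3 of the 10 (Lpin2, Lpin3 and Hilpda), AGGTCA for Plin2, Plin5 and Lpin1, TGACTCA for Plin5 and Lpin3, and TTGCNNAA for Lpin2, upstream of the third of its RefSeq starts. TTCCNGGAA was found for none of the 10. The same letters occur upstream of genes that differed between groups and of genes that did not, and a match is a description of the sequence, not of a bound factor.

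Total counts lay between 17960353 and 22216315 per mouse, and 17558 genes had enough counts to be tested, the 10 genes among them. A level in CPM is a count scaled to the TMM-normalized size of its library. Where genes are compared with each other, RPKM is used, which is CPM per kilobase of gene length. The Vehicle group was not uniform. Vehicle mice 1 and 2 both lay above Vehicle mice 3 and 4 in 6 of the 10 genes (60.0%), and in 30.9% of all genes tested. They were also the deepest libraries of their group (21633197 and 22216315 counts). Summed markers of blood monocytes and macrophages were at 165, 224, 24.5 and 40.8 CPM in Vehicle mice 1 to 4, against 3.11 to 4.52 in Sham and 8.08 to 36.4 in LJP mice. Neutrophil markers were at 159, 39.8, 0.646 and 4.63 CPM in the same 4 mice, and at most 0.272 in Sham and 0.816 in LJP mice, and none of the 6 passed the filter on low counts, so none was tested. For that reason the counts below are also given without Vehicle mice 1 and 2, an alternative chosen after seeing the data, as are the log2 fold changes of Vehicle against Sham mice, among those printed as called, that then lost their call or moved by over 1.5 times.

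Plin2, the coat protein made by most cells that store lipid, showed the widest difference from Sham mice of the 10 genes, in both the Vehicle and LJP groups. It was at 4.90, 4.96, 4.71 and 5.75 CPM in the Sham mice and at 151, 243, 52.2 and 59.7 CPM in the Vehicle mice. The LJP mice were at 39.4, 16.7, 73.9 and 16.0 CPM. Every mouse with an occlusion was above every Sham mouse, while Vehicle and LJP mice overlapped, with LJP mouse 3 above Vehicle mice 3 and 4. Mean CPM was 24.9 times the Sham mean in the Vehicle group and 7.18 times in the LJP group. In the edgeR fit across all genes tested, the log2 fold change of Vehicle against Sham was 4.63 (standard error, SE, 0.62; adjusted p = 0.000307), and that of LJP against Sham was 2.84 (0.59, adjusted p = 0.0162). LJP against Vehicle gave -1.79 (0.53, adjusted p = 0.0729), which does not pass the threshold of 0.05.

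Plin3, a perilipin that moves between cytosol and nascent droplets, was the leading perilipin transcript of the Sham brain. Sham mice were at 14.7, 19.1, 17.1 and 19.4 CPM, and Vehicle mice at 24.7, 43.6, 27.9 and 33.2. LJP mice held a narrow band of 24.5, 23.3, 28.5 and 21.6 CPM. Both groups with an occlusion lay wholly above the Sham group and overlapped each other. The Vehicle mean was 1.84 times the Sham mean (log2 fold change 0.88, SE 0.17, adjusted p = 0.00193). The LJP mean was 1.39 times the Sham mean (0.48, 0.17, adjusted p = 0.132).

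Plin4, which coats small droplets through a long amphipathic repeat and is known mostly from fat and muscle, followed another course. It was at 5.71, 11.0, 7.78 and 8.45 CPM in Sham, at 63.8, 62.6, 33.7 and 23.4 in Vehicle, and at 22.6, 64.3, 54.7 and 47.9 in LJP mice. The Vehicle and LJP groups covered almost the same range, both above all Sham mice. Mean CPM was 5.57 times the Sham mean in the Vehicle group and 5.75 times in the LJP group. The log2 fold change was 2.48 (SE 0.38, adjusted p = 0.000614) for Vehicle against Sham and 2.52 (0.38, adjusted p = 0.00249) for LJP against Sham. For LJP against Vehicle it was 0.04, with a 95% interval from -0.71 to 0.79, and without Vehicle mice 1 and 2 it was 0.73 (adjusted p = 0.331).

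Plin5, which tethers droplets to mitochondria in oxidative tissue, was scarce, with 11 to 66 counts per mouse. Sham mice were at 0.807, 0.654, 1.48 and 1.09 CPM, Vehicle mice at 3.00, 1.76, 0.592 and 0.916, and LJP mice at 0.545, 1.02, 1.31 and 0.948. All 3 groups overlapped, and the high values were those of Vehicle mice 1 and 2. No comparison of Plin5 passed the test (log2 fold change 0.65 for Vehicle against Sham, SE 0.46, adjusted p = 0.283). Without Vehicle mice 1 and 2 that difference had the opposite sign, -0.42, with an adjusted p of 0.533. Plin4, its close neighbour on the chromosome, was at 3.15 RPKM or more in all 4 LJP mice, whereas no LJP mouse exceeded 0.621 RPKM of Plin5 and the highest Sham mouse was at 0.704.

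**Figure D1:**
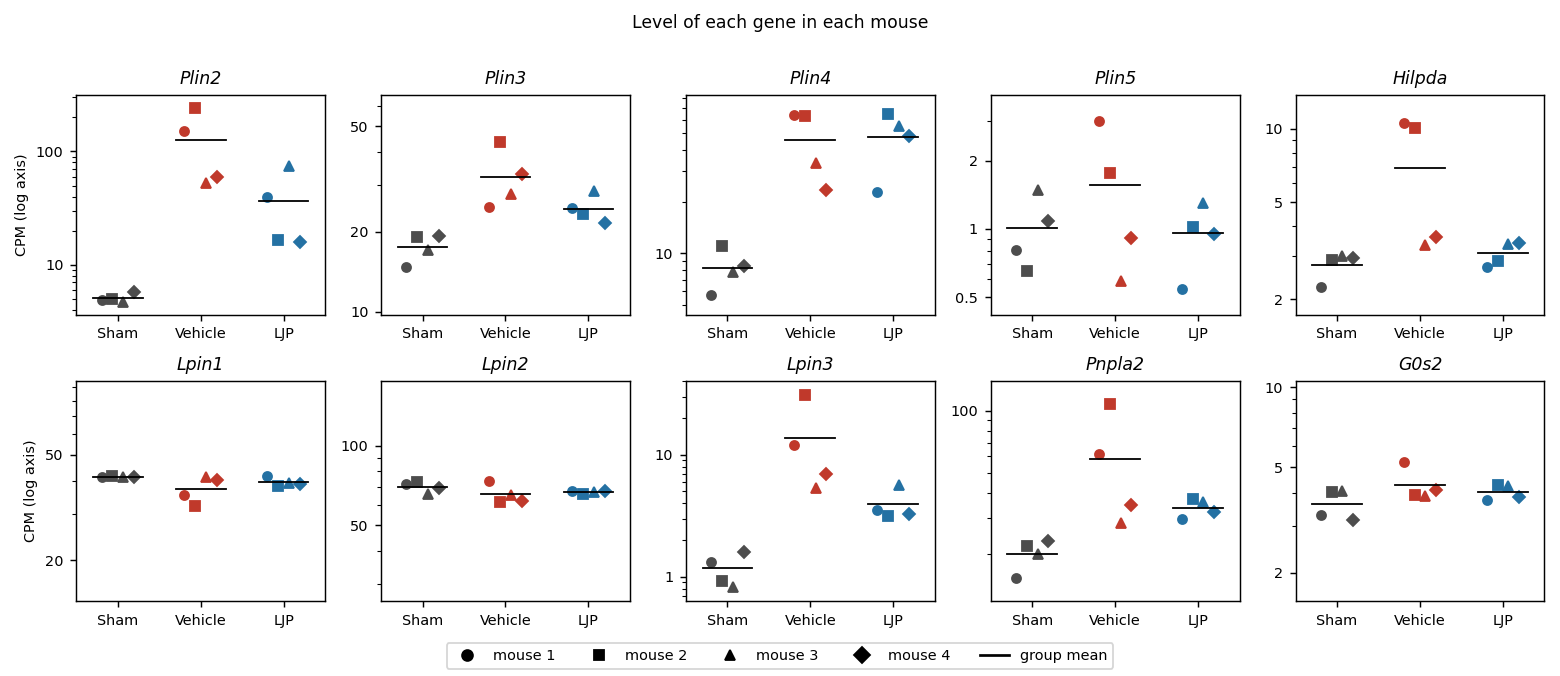
Level of each of the 10 genes in each mouse, in CPM on a log axis, by group (4 mice each; the symbol gives the mouse number and the bar the group mean). Plin2, Plin3, Plin4, Lpin3, Hilpda and Pnpla2 have no Vehicle mouse at or below a Sham mouse, while Lpin1, Lpin2 and G0s2 overlap in all groups.

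The make-up of the perilipin pool differed accordingly. As a share of the summed RPKM of Plin2 to Plin5, Plin3 made up 68.6% to 70.0% in the Sham mice and Plin2 15.3% to 19.3%. In Vehicle mice Plin2 held 73.0%, 76.1%, 53.2% and 55.0%, and Plin3 between 14.2% and 36.3%. LJP mice split in their Plin2 share, at 51.0% and 57.3% in mice 1 and 3 and at 24.3% and 26.7% in mice 2 and 4. In those last 2 mice Plin4 held 33.5% and 28.6%, against at most 12.3% in any Sham or Vehicle mouse. The ratio of Plin4 to Plin2 RPKM was 0.0923 to 0.231 in Vehicle mice and 0.205, 1.38, 0.265 and 1.07 in LJP mice 1 to 4. Shares of a pool are tied to each other, so a lower share of Plin3 goes with a higher level of Plin3 in the Vehicle mice.

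**Figure D2:**
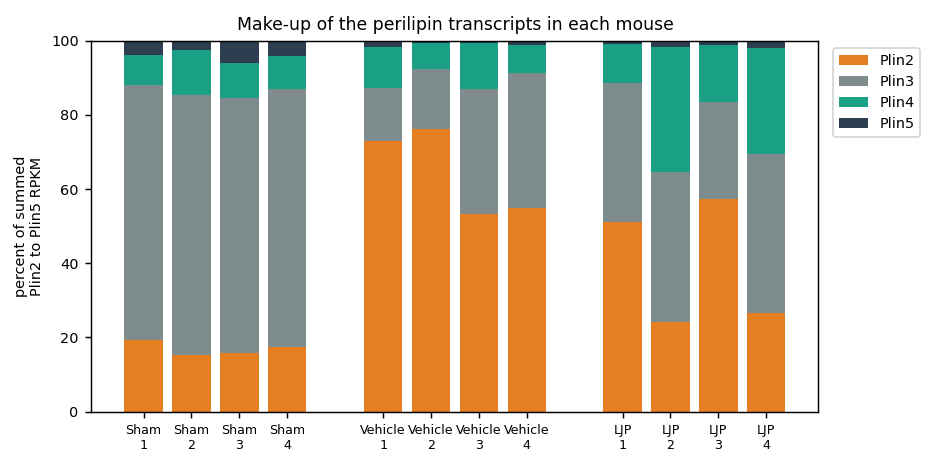
Share of each perilipin in the summed RPKM of Plin2 to Plin5, in percent, for each of the 12 mice. Plin3 leads in all 4 Sham mice, Plin2 leads in all 4 Vehicle mice, and Plin4 reaches 33.5% in LJP mouse 2.

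Among the lipins, the forms abundant in Sham brain did not pass the test in any comparison, while the scarce form, Lpin3, was called higher in Vehicle mice. Lpin1, the form that fasting induces in liver, was at 41.2, 41.5, 41.4 and 41.2 CPM in Sham mice, at 35.3, 32.0, 41.4 and 40.1 in Vehicle mice and at 41.7, 38.2, 39.1 and 38.7 in LJP mice. Vehicle mice 1 and 2 were the lowest of the 12. The log2 fold change of Vehicle against Sham was -0.15 (95% interval -0.33 to 0.03, adjusted p = 0.164).

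Lpin2, the form whose loss causes the autoinflammatory Majeed syndrome, was at 71.9, 72.8, 65.6 and 69.2 CPM in Sham mice. Vehicle mice were at 73.9, 61.6, 65.0 and 61.9 CPM and LJP mice at 67.5, 65.8, 66.8 and 67.5. The groups overlapped throughout, and the intervals of all 3 comparisons lay within 0.25 of 0 on the log2 scale (Vehicle against Sham -0.09, 95% interval -0.24 to 0.06).

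Lpin3, the third lipin phosphatase, was at 1.33, 0.926, 0.822 and 1.61 CPM in Sham mice, which is 15 to 31 counts. Vehicle mice were at 12.1, 30.9, 5.38 and 6.95 CPM, and LJP mice at 3.54, 3.17, 5.66 and 3.29. The occlusion groups lay wholly above the Sham group, and LJP mouse 3 alone overlapped the Vehicle range. Mean CPM was 11.8 times the Sham mean in Vehicle mice and 3.34 times in LJP mice. The log2 fold change was 3.56 for Vehicle against Sham (SE 0.53, adjusted p = 0.000541). It was -1.83 for LJP against Vehicle (0.47, adjusted p = 0.0678) and 1.73 for LJP against Sham (0.53, adjusted p = 0.0864), neither of which passed. On the RPKM scale Lpin3 made up 1.73% to 3.27% of the lipin pool in Sham mice, 6.64% to 11.1% in LJP mice, and 21.1%, 44.1%, 10.4% and 13.5% in Vehicle mice 1 to 4. In Vehicle mouse 2 its RPKM was 1.71 times that of Lpin2 and 1.46 times that of Lpin1.

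Of the lipase and its inhibitors, Pnpla2 and Hilpda were called higher in Vehicle than in Sham mice and G0s2 was not. Pnpla2 was at 15.4, 22.0, 20.2 and 23.2 CPM in Sham mice, at 61.5, 108, 28.5 and 34.9 in Vehicle mice, and at 29.7, 37.1, 35.8 and 32.0 in LJP mice. All occlusion mice were above all Sham mice. The LJP mice sat in a band between 29.7 and 37.1 CPM that takes in Vehicle mouse 4 but not Vehicle mice 1 and 2. The Vehicle mean was 2.88 times the Sham mean (log2 fold change 1.53, SE 0.33, adjusted p = 0.00405), and the LJP mean 1.67 times (0.74, 0.33, adjusted p = 0.251).

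G0s2, the inhibitor that binds the lipase domain directly, stayed between 3.16 and 5.22 CPM in all 12 mice. The 4 Sham mice were at 3.29, 4.03, 4.06 and 3.16 CPM, the Vehicle mice at 5.22, 3.91, 3.88 and 4.10, and the LJP mice at 3.77, 4.29, 4.24 and 3.85. The groups overlapped, with only Vehicle mouse 1 apart from the rest, and no comparison passed (log2 fold change 0.23 for Vehicle against Sham, 95% interval -0.12 to 0.59, adjusted p = 0.264). The ratio of Pnpla2 to G0s2 RPKM was 1.45 to 2.27 in Sham mice and 2.44 to 2.68 in LJP mice. In Vehicle mice it was 3.66, 8.54, 2.28 and 2.64.

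Hilpda, the inhibitor known as a hypoxia-inducible gene, was high in 2 animals. Vehicle mice 1 and 2 were at 10.6 and 10.1 CPM, whereas Vehicle mice 3 and 4 were at 3.34 and 3.61. Sham mice were at 2.25, 2.89, 3.01 and 2.95 CPM, and LJP mice at 2.73, 2.86, 3.37 and 3.40. All Vehicle mice were above all Sham mice, the lower pair by a small margin, and LJP mice overlapped both groups. The log2 fold change was 1.32 for Vehicle against Sham (SE 0.35, adjusted p = 0.0109), -1.17 for LJP against Vehicle (0.35, adjusted p = 0.0729) and 0.15 for LJP against Sham (0.36, adjusted p = 0.869). Without Vehicle mice 1 and 2 the first of these was 0.32 with an adjusted p of 0.293, so the call rests on those mice (0.00145 to 0.293 over all 19 alternatives).

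**Figure D3:**
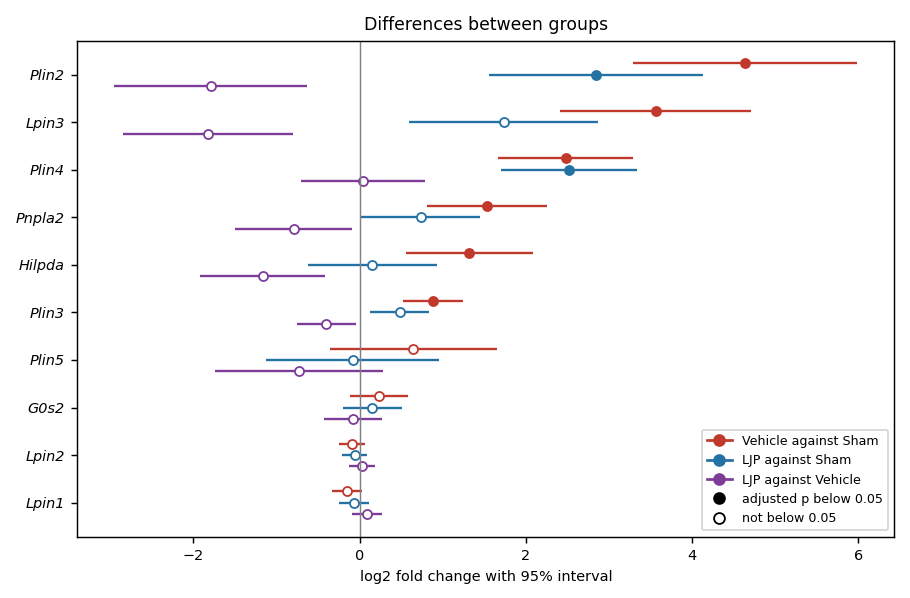
Log2 fold change of each gene in the 3 comparisons with its 95% interval (edgeR, all 12 mice; filled symbols have an adjusted p below 0.05). Vehicle against Sham is filled for 6 genes, LJP against Sham for Plin2 and Plin4, and LJP against Vehicle for none.

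Counted over the 10 genes, 6 were called higher in Vehicle than in Sham mice and 0 lower, where 22.7% of all genes tested were called higher. The same 6 had no overlap between the groups, with every Vehicle mouse above every Sham mouse, as did 20.7% of all genes. Since the genes were selected on this contrast, these counts are given without reading. The median log2 fold change of the 10 was 1.10, and that of all genes tested was 3.54e-05. With Vehicle mice 1 and 2 left out, 5 of the 10 were called higher, beside 15.7% of all genes, with Hilpda lost. The log2 fold change was then 3.45 for Plin2, 2.38 for Lpin3, 1.78 for Plin4, 0.79 for Plin3 and 0.64 for Pnpla2. Of single mice, Vehicle mouse 2 moved Lpin3 most, to 2.79 without it.

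For LJP against Sham mice, 2 of the 10 were called higher, Plin2 and Plin4, beside 3.85% of all genes. Leaving out any single Sham mouse or LJP mouse 3 took the call from Plin2 (adjusted p between 0.0511 and 0.0616) and left Plin4 called. In 5 of the 10 genes (Plin2, Plin3, Plin4, Lpin3 and Pnpla2) every LJP mouse was above every Sham mouse, beside 12.9% of all genes. Leaving out Vehicle mouse 2 changes the estimate of the spread that all groups share, and then 5 genes were called, those same genes, beside 7.77% of all genes (adjusted p of 0.0259 for Plin3, 0.00407 for Lpin3 and 0.0354 for Pnpla2). Leaving out both Vehicle mice 1 and 2 also called these 5, beside 12.3% of all genes, with adjusted p-values of 0.00584 for Plin3, 0.000286 for Lpin3 and 0.000494 for Pnpla2.

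For LJP against Vehicle mice, edgeR called 0 of the 10 lower, beside 0.0228% of all genes. Of the 4 genes behind that share, 3 were lung markers, which are described below. In the same fit 5 of the 10 had an unadjusted p below 0.05, as did 29.7% of all genes. DESeq2 on the same counts called 3 lower, beside 9.97% of its genes: Plin2 (adjusted p = 0.0311), Lpin3 (0.0049) and Hilpda (0.0191). The study's own cut-offs (over 0.58 in either direction on the log2 scale, unadjusted p below 0.01), applied here to the edgeR fit, passed 3 genes, beside 5.89% of all genes lower by that rule. No gene of the 10 had every LJP mouse below every Vehicle mouse, beside 5.91% of all genes. Without Vehicle mouse 3 edgeR called 4 genes lower (Plin2, Lpin3, Hilpda and Pnpla2), beside 13.1% of all genes. Without Vehicle mouse 4 it called 3 (the first 3 of these), beside 8.38% of all genes. Without Vehicle mice 1 and 2 the difference between LJP and Vehicle mice was -0.62 for Plin2, -0.66 for Lpin3, -0.17 for Hilpda and 0.08 for Pnpla2 on the log2 scale, with adjusted p-values of 0.54, 0.321, 0.761 and 0.835. These 4 values were nearer to 0 than in the fit of all mice, whereas that of Plin4 went from 0.04 to 0.73 and that of Plin5 from -0.73 to 0.33 (adjusted p = 0.792). Over all 19 alternatives the adjusted p lay between 0.0211 and 0.54 for Plin2, 0.0049 and 0.321 for Lpin3, 0.0141 and 0.761 for Hilpda, and 0.0281 and 0.835 for Pnpla2. The median log2 fold change of the 10 in the fit of all mice was -0.57, and that of all genes was -0.00174. The 3 comparisons share their groups, so the values above are not independent of each other.

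Ordered by RPKM, the Sham brain had Plin3 first (mean 8.14), then Pnpla2 (7.42), Lpin1 (5.79), Lpin2 (4.36), G0s2 (4.31), Hilpda (2.51), Plin2 (1.98), Plin4 (1.15), Plin5 (0.479) and Lpin3 (0.248). Over the 4 mice the ranges of Plin3 and Pnpla2 overlapped, as did those of Pnpla2 and Lpin1, Lpin2 and G0s2, Hilpda and Plin2, and Plin5 and Lpin3. In the Vehicle group Plin2 moved from the seventh place to the first (mean 49.3 RPKM), followed by Pnpla2 (21.4), Plin3 (15.0) and Plin4 (6.41). The Vehicle ranges of Plin2 (20.4 to 94.9 RPKM), Pnpla2 (10.5 to 39.6) and Plin3 (11.5 to 20.2) overlapped from each to the next, and Pnpla2 was above Plin3 in Vehicle mice 1 and 2 but below it in mice 3 and 4. Plin4 (3.28 to 8.91 RPKM) also overlapped Hilpda (3.02 to 9.60). The LJP group had the same leading order, with Plin2 at 14.3, Pnpla2 at 12.4, Plin3 at 11.3 and Plin4 at 6.62 RPKM. The ranges of the first 3 overlapped there, since Plin2 spanned 6.25 to 28.9 RPKM.

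The rest of the droplet and triglyceride pathway was read from 8 lists with 136 tested genes other than the 10. For Vehicle against Sham mice, 48 of the 136 were called higher and 25 lower, beside 22.7% and 17.3% of all genes tested. Without Vehicle mice 1 and 2 these counts were 36 and 22, beside 15.7% and 14% of all genes. Fatty acid oxidation with its nuclear receptors had the largest count higher of the 8 lists, 14 of 24 genes with 2 lower (11 and 2 without Vehicle mice 1 and 2), and a median log2 fold change of 0.43. Angptl4, a PPAR target that inhibits lipoprotein lipase, went from 2.02 ± 0.35 CPM (SD, n = 4) in Sham to 28.3 ± 24.2 in Vehicle and 5.32 ± 1.79 in LJP mice (log2 fold change 3.81 for Vehicle against Sham, adjusted p = 0.00104). Its Vehicle mice were at 43.4, 54.4, 5.76 and 9.75 CPM, and the log2 fold change was 1.93 without mice 1 and 2 (adjusted p = 0.000195). Cpt1a, which admits fatty acids to mitochondria, was at 31.0 ± 2.08, 73.0 ± 33.2 and 41.2 ± 10.3 CPM in the 3 groups (1.24, adjusted p = 0.00313, and 0.77 without Vehicle mice 1 and 2). Ucp2, a mitochondrial carrier abundant in myeloid cells, was at 25.8 ± 5.73, 203 ± 126 and 82.5 ± 32.6 CPM (2.98, adjusted p = 0.00033). The 2 lower genes were the coactivators Ppargc1a and Ppargc1b.

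Fatty acid uptake and binding had 7 of 14 genes higher and 1 lower, and 6 and 1 without those mice. Msr1, the scavenger receptor of macrophages, was at 0.384 ± 0.151 CPM in Sham, 28.2 ± 18.3 in Vehicle and 8.91 ± 7.23 in LJP mice (log2 fold change 6.18, adjusted p = 0.000151), and it is also one of the macrophage markers used below. Fabp5, a fatty acid carrier, was at 49.0 ± 1.02, 85.3 ± 17.0 and 65.7 ± 13.9 CPM (0.80, adjusted p = 0.00209), and Dbi, the acyl-CoA binding protein, at 43.0 ± 2.31, 76.4 ± 8.03 and 62.1 ± 7.96 (0.83, adjusted p = 0.000176). The gene called lower was Vldlr.

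Other droplet proteins had 4 of 13 genes higher (Cidea, Hsd17b11, Aup1 and Tmem159) and 3 lower (Ldah, Acsl3 and Spast), beside 22.7% and 17.3% of all genes. The median log2 fold change of this list was -0.03. This list had 2 higher and 2 lower without Vehicle mice 1 and 2, and Spast was at an adjusted p of 0.0715. Aup1 went from 41.1 ± 2.68 to 53.4 ± 2.98 CPM (0.38, adjusted p = 0.00212) and Ldah from 28.6 ± 1.16 to 22.2 ± 2.06 (-0.37, adjusted p = 0.00447). Lipolysis had 3 of 12 higher (Lipe, Abhd12 and Lipa) and 3 lower (Pnpla8, Ddhd2 and Nceh1), beside the same 22.7% and 17.3%. It had 2 and 3 without Vehicle mice 1 and 2. Lipa, the lysosomal lipase, was at 13.7 ± 0.592 CPM in Sham and 36.8 ± 18.5 in Vehicle mice (1.43, adjusted p = 0.00288). Glycerolipid synthesis had 4 of 17 higher and 2 lower, beside the same 22.7% and 17.3%, and 4 and 3 without Vehicle mice 1 and 2. Gpd1, which makes the glycerol backbone, rose from 111 ± 5.47 to 239 ± 41.4 CPM (1.10, adjusted p = 0.000879), and Agpat2, which makes phosphatidate, from 1.25 ± 0.419 to 5.78 ± 2.89 (2.21, adjusted p = 0.0016), while Dgat2 and Acsl6 were the genes called lower, Acsl6 with an adjusted p of 0.287 once Vehicle mice 1 and 2 were left out.

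The list of phosphatidate enzymes and lipin partners had 5 of 22 genes higher and 8 lower, beside 22.7% and 17.3% of all genes. Its counts without Vehicle mice 1 and 2 were 3 higher and 6 lower. Dgkb, a neuronal kinase that turns diacylglycerol back into phosphatidate, fell from 206 ± 24.3 CPM in Sham to 69.3 ± 17.1 in Vehicle mice and stood at 112 ± 18.3 in LJP mice (log2 fold change -1.57 for Vehicle against Sham, adjusted p = 0.000122). Dgki fell from 136 ± 13.6 to 71.2 ± 15.0 CPM (-0.94, adjusted p = 0.000499). The phosphatase Plpp1, which acts on phosphatidate at membranes, was at 17.6 ± 2.29 and 26.5 ± 5.69 CPM (0.60, adjusted p = 0.00714), a call lost without Vehicle mice 1 and 2 (0.32, adjusted p = 0.0621). Summed neuronal markers were at 5393 to 6027 CPM in Sham and 3377 to 5338 in Vehicle mice beside these kinases, and at 5160 to 6174 in LJP mice. Only 2 of the 6 neuronal markers were called lower in Vehicle than in Sham mice.

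Synthesis of fatty acids and sterol esters had 3 of 15 genes higher and 1 lower, beside 22.7% and 17.3% of all genes. It had 4 and 2 without Vehicle mice 1 and 2. Soat2, which esterifies cholesterol, was at 0.138 ± 0.036 CPM in Sham mice, about the level of 3 counts, and at 3.80 ± 3.14 in Vehicle and 0.239 ± 0.089 in LJP mice (adjusted p = 0.00062 for Vehicle against Sham, with no fold given against so low a count). Srebf1 was at 71.7 ± 3.15, 121 ± 9.18 and 101 ± 10.9 CPM in the 3 groups (0.75, adjusted p = 0.000136). The hypoxia list had 8 of 19 genes higher and 5 lower, and 4 and 3 without Vehicle mice 1 and 2. Adm was at 1.77 ± 0.788, 13.8 ± 11.2 and 2.29 ± 0.287 CPM (2.97, adjusted p = 0.00262), with Vehicle mice 1 to 4 at 23.4, 23.5, 2.91 and 5.50. Its log2 fold change without Vehicle mice 1 and 2 was 1.24 (adjusted p = 0.0128). Vegfa was at 75.2 ± 2.00, 46.7 ± 8.95 and 56.4 ± 8.14 (-0.69, adjusted p = 0.00211).

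**Figure D4:**
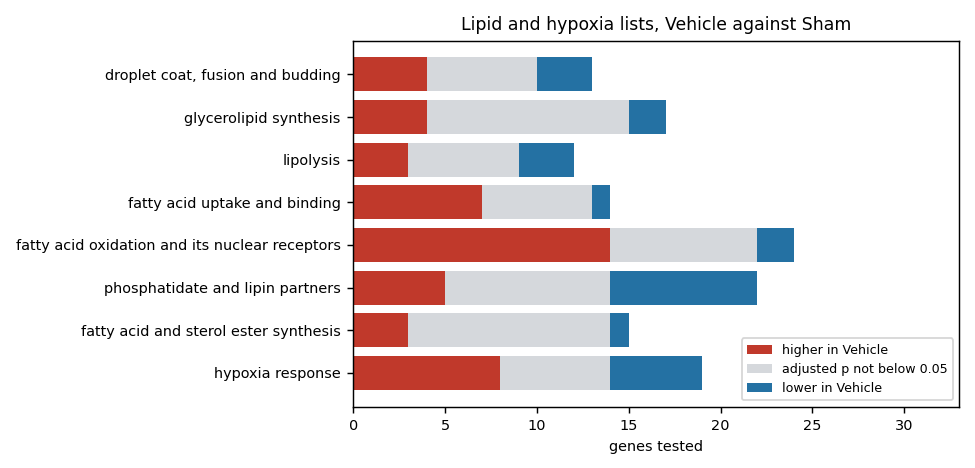
Number of genes tested in each of the 8 lists (the 10 genes left out) that were called higher or lower in Vehicle than in Sham mice at an adjusted p below 0.05. Fatty acid oxidation has 14 of 24 higher, and the phosphatidate list has more lower (8) than higher (5). Of all genes tested, 22.7% were called higher and 17.3% lower.

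For LJP against Vehicle mice, edgeR called 0 of the 136 list genes. At an unadjusted p below 0.05 the count was 49, beside 29.7% of all genes, and DESeq2 called 20, beside 14.5% of its genes. Of those 20, 6 were in the oxidation list and 4 in the hypoxia list. For LJP against Sham mice, 6 were called higher (Gpd1, Dbi, Msr1, Acads, Ucp2 and Srebf1) and 2 lower (Dgkb and Dgki), beside 3.85% and 0.9% of all genes. Without Vehicle mice 1 and 2 the counts were 0 for LJP against Vehicle, and 26 higher and 17 lower for LJP against Sham, beside 12.3% and 12.0% of all genes. The lists were written with earlier results of these data known, so their counts are a description as well.

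The genes whose mean-centred log2 CPM profile over the 12 mice lay nearest to each member were found by the root mean square difference. Nearest to Plin2 were Ms4a6d (0.24), Csf2rb (0.24) and Adam8 (0.29), which are genes of myeloid cells. Lpin3 had Aspg (0.23), Tnfrsf1a (0.24) and Fblim1 (0.26). Hilpda lay near Gsr (0.16), Csrnp1 (0.17) and Slc39a14 (0.18), and Pnpla2 near Trim72 (0.14), Ccdc9b (0.15) and Fpgs (0.18). The nearest genes of Plin4 were farther off, with Apod at 0.45, Hspb6 at 0.50 and Cela1 at 0.50, and those of the scarce Plin5 were Cldn23, Efcab8 and Rdh12. Plin3, Lpin1, Lpin2 and G0s2 varied by an SD of log2 CPM under 0.5, and no neighbours are named for them. These profiles share libraries and groups, so nearness describes the 12 mice and nothing more.

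Markers of other cells moved with several of the 10 genes. Of the 5 monocyte and macrophage markers tested, 5 were called higher in Vehicle than in Sham mice and 1 in LJP than in Sham mice. Their sum was highest in Vehicle mice 1 and 2, and among the LJP mice it ranked as Plin2 did for the top pair: mouse 3 at 36.4 CPM and mouse 1 at 15.6, with mice 2 and 4 at 8.08 and 8.81. Endothelial markers were at 657, 1390, 295 and 353 CPM in Vehicle mice 1 to 4, 210 to 225 in Sham and 210 to 268 in LJP mice, with Vehicle mouse 2 highest there as in Plin2, Plin3, Lpin3 and Pnpla2. Red cell markers were at 89.2, 51.2, 9.80 and 14.4 CPM in Vehicle mice, against at most 5.99 in Sham and 8.92 in LJP mice. Microglial markers did not follow that split of the Vehicle mice: they were at 255, 469, 541 and 568 CPM there, and 197 to 202 in Sham mice. In LJP mice 1 to 4 they were at 595, 344, 606 and 354 CPM, with mice 1 and 3 above mice 2 and 4, as in Plin2. The part of these cells in the levels of Plin2, Lpin3, Pnpla2 and Hilpda was not tested. In bulk RNA, more cells of a type and more RNA per cell cannot be told apart.

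Astrocyte markers summed to 3468 to 5449 CPM in Vehicle and 3591 to 4066 in Sham mice. In LJP mice 1 to 4 they were at 5478, 4443, 4937 and 4200 CPM, again with mice 1 and 3 above mice 2 and 4. Oligodendrocyte markers summed to 4421 to 6046 CPM over all mice, so the markers of brain cells were present in every mouse. Adipocyte markers, Plin1 among them, summed to between 0.269 and 0.971 CPM, with Adipoq, Lep, Cfd and Cidec at 3 counts or fewer in every mouse. Skeletal muscle markers were at 5.54 to 9.23 CPM without a group apart from the others. Choroid plexus markers varied from 22.0 to 910 CPM within the groups. Lung markers were at 9.03 to 13.6 CPM in Sham and Vehicle mice but at 0.358 to 0.669 in LJP mice, which sets the LJP libraries apart in transcripts foreign to brain. The part of that difference in the levels of the 10 genes was not tested.

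**Figure D5:**
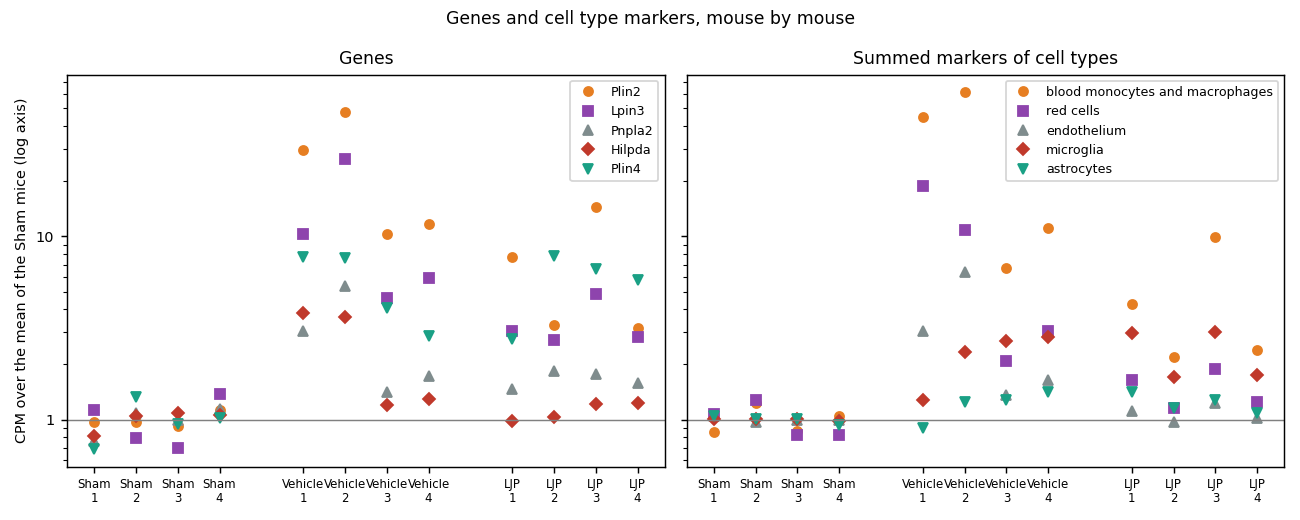
Levels of 5 of the genes (left) and summed markers of 5 cell types (right) in each mouse, divided by the mean of the Sham mice, on a log axis. Vehicle mice 1 and 2 stand highest in Plin2, Lpin3, Pnpla2, Hilpda, monocyte and macrophage markers, red cells and endothelium, while Plin4 reaches 64.3 CPM in LJP mouse 2 and 63.8 in Vehicle mouse 1.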

How the data were processed

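Poly(A) RNA of ischemic hemispheres was sequenced from 12 mice as paired-end reads. The authors deposited raw counts of reads per gene and mouse, with no normalization. The submitters' processing notes name featureCounts, DESeq2 and the builds GRCm39 and mm10, without roles. Gene positions in the table equal RefSeq GRCm38.p6 for 99.9% of genes. The aligner, the strand setting and the treatment of reads shared between genes are not given in the sources used here, so near-identical or overlapping genes may exchange reads.

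Groups came from the treatment labels. Counts were fitted in R 4.3.3 with edgeR 4.0.16: after filterByExpr (17558 of 39756 genes left) and TMM scaling, the 12 mice entered a single quasi-likelihood model with 1 term for each group. Benjamini-Hochberg adjustment ran over all genes tested, and an adjusted p below 0.05 made a call. Standard errors and 95% intervals came from the same fit. The filter removed 0 of the 10 genes, so the exact permutation test planned for removed genes was not needed. CPM used the TMM-scaled library size; RPKM divided it by the gene length in the table. Mice of a group differed by more than sampling noise (chi-square per degree of freedom at least 2.56). It was 70.2 between Vehicle mice 1 and 2, and 4.44 between Vehicle mice 3 and 4. Against mice 3 and 4 it was 51.7 and 45.2 for Vehicle mouse 1, and 122 and 104 for Vehicle mouse 2. Over all genes Vehicle mice 1 and 2 thus also differed from each other.

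The genes, the pathway and marker lists and the tests were chosen with earlier results of these data known. All 10 genes are named, with, from each pathway list, the 3 genes of smallest unadjusted p in Vehicle against Sham and in LJP against Vehicle as the pool for examples, and the 3 nearest genes of each member with an SD of log2 CPM above 0.5; other list genes named beside a count were named after their values were seen. Alternatives were DESeq2 1.42.0, RLE factors or library size only, no filter, a fit of 2 groups, a replicate block, other thresholds, and leaving out each mouse. A floor of 3 counts equals 0.135 to 0.167 CPM and covers counting error only. Upstream sequences came from RefSeq (GRCm38.p6). Replicates are separate mice, and their labels do not divide them into batches.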

Additional observations from a re-analysis of the deposited data

Results flagged for a closer look

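Each of the 10 genes was examined in each of the 3 groups for a mouse far from the other 3, by the gap to its nearest neighbour as a share of the range of the group. Of 30 groups, 3 went past Dixon's critical value for 4 samples, where chance gives about 1.5. Lpin3 in LJP mouse 3 (5.66 CPM, the others between 3.17 and 3.54) had a ratio of 0.85. Hilpda in Sham mouse 1 (2.25 CPM, the others between 2.89 and 3.01) had 0.835, and G0s2 in Vehicle mouse 1 (5.22 CPM, the others between 3.88 and 4.10) had 0.836. LJP mouse 3 was also the highest of its group in Plin2 and Plin3 and in the summed monocyte and macrophage markers, at 36.4 CPM. Without that mouse the log2 fold change of Plin2 in LJP against Sham mice was 2.24 with an edgeR adjusted p of 0.0511. The split of the Vehicle group into mice 1 and 2 and mice 3 and 4 did not come up in this way, since a pair of high mice leaves no single mouse apart.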

How the results depend on the processing

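For Vehicle against Sham, 6 of the 10 genes were called in each of the edgeR and DESeq2 fits and in each fit without 1 mouse, with 5 at an adjusted p below 0.01 and 5 without Vehicle mice 1 and 2. The genes called over the whole table were 7014, 3874 at an adjusted p below 0.01 and 3807 at the thresholds of the study's methods, here and below applied to the edgeR fit. For LJP against Vehicle, 0 of the 10 were called, 3 with DESeq2, 1 without the filter (Lpin3), 3 at the thresholds of the study's methods, and 0 to 4 without 1 mouse. All genes called were 4, with 2399 by DESeq2, 593 without the filter, 2 with only the 2 groups compared, 1223 at the study's thresholds, 8 without Vehicle mice 1 and 2, and 3 to 3857 without 1 mouse (3857 without Vehicle mouse 3, 2095 without Vehicle mouse 4). For LJP against Sham, 2 of the 10 were called, 3 with DESeq2, 5 with only the 2 groups compared, 1 at an adjusted p below 0.01, 5 without Vehicle mice 1 and 2, and 1 to 5 without 1 mouse. All genes called were 834, with 1530 by DESeq2, 4043 with only the 2 groups compared, 321 at an adjusted p below 0.01, 4389 without Vehicle mice 1 and 2, and 393 to 2357 without 1 mouse (2357 without Vehicle mouse 2). The cause of these shifts was not tested. No log2 fold change of the 10 genes that was called in the fit of all mice changed sign in these alternatives. Pnpla2 in LJP against Vehicle was called only in the fit without Vehicle mouse 3 (-1.01) and was at 0.08 without Vehicle mice 1 and 2. Of 56 list counts recomputed per comparison, 4 moved by over 1.5 times for Vehicle against Sham, 12 for LJP against Vehicle and 24 for LJP against Sham. Leaving out Vehicle mice 1 and 2 was chosen after seeing the data. Mice with the same number share only the number: their deviations from the group means correlated between -0.322 and 0.114. The replicate block gave 2 genes called for LJP against Vehicle and 464 for LJP against Sham. In the latter 1 of the 10 was called, Plin4, while Plin2 lost its call (adjusted p of 0.057 in that fit). Values of Plin5 rest on 11 to 66 counts per mouse over the 12 mice, and those of Lpin3 in Sham mice on 15 to 31; the smallest difference detectable at these counts was not tested.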
